A study of Bos taurus with 18 samples.

Results

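The genes described here make, coat and break down the triglyceride of lipid droplets: LPIN1, DGAT1 and DGAT2 for synthesis, PLIN2 and PLIN3 for the droplet coat, PNPLA2, its co-activator ABHD5, LIPE and MGLL for breakdown, and HILPDA, an inhibitor of PNPLA2. They were found by gene symbol in a table of endometrial RNA-seq counts; the rule sets no limit on any value, but the list was drawn up with earlier results of these data known. Of the 10 genes listed, 9 had a row under their symbol among the 38001 rows of the table, and all 9 were among the 19638 genes tested. HILPDA is not analysed here.

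The samples came from 6 Holstein cows, and every cow gave 3 brushings of the endometrium, the lining of the uterus, in 2 cycles synchronized with Ovsynch, a hormone programme that sets the time of ovulation. In the 17-OHPC/P4 arm, animals A, B and C received a depot of 100 mg of 17-hydroxyprogesterone caproate (17-OHPC, an ester of 17-hydroxyprogesterone) and 10 mg of progesterone (P4) on day 4 of the second cycle, and were sampled on day 7. In the P4 arm, animals D, E and F received 100 mg of P4 on day 4 of the second cycle and were sampled on day 7. Both arms were first sampled on day 7 and on day 4 of an untreated control cycle, which gives 6 groups of 3 libraries. Day 0 was the day of estrus. The treated cycle always followed the control cycle, so treatment and cycle order cannot be told apart, and the arms were different cows. Control day 7 followed a brushing on day 4 of the same cycle. Between the control days, cycle day and an earlier brushing therefore cannot be told apart. The treated cycle was brushed on day 7 only, so treated and control day 7 also differ in this. The cytobrush was turned in the uterine horn next to the ovary with the corpus luteum and takes up loose and superficial cells, so each library is a mixture of cell types.

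Triglyceride is built stepwise on a glycerol backbone. Lipins such as LPIN1 remove the phosphate from phosphatidate to give diacylglycerol, and the acyltransferases DGAT1 and DGAT2, which are unrelated in sequence, add the last fatty acid. The product is stored in droplets coated by perilipins. Breakdown runs the other way: the lipase PNPLA2, switched on by ABHD5, removes the first fatty acid, LIPE the next, and MGLL splits monoacylglycerol into glycerol and a fatty acid. In ruminants, droplets collect in uterine epithelium during the luteal phase, and fatty acids are among the nutrients supplied to the embryo before it attaches.

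Total counts ran from 29347255 to 40733544 per library. Levels are given as CPM, counts scaled to a common library size, and compare 1 gene between samples, not genes with each other, since no transcript lengths were used. The summed level of 7 epithelial markers ran from 2130 to 4988 CPM over the 18 libraries. Of 6 adipocyte markers 5 had a row, and their summed level was 4.98 to 14.5 CPM. LEP had no count in any of the 18 libraries and CIDEC reached at most 0.253 CPM, while PLIN1 (2.48 to 4.29 CPM), CIDEA (1.18 to 9.39 CPM) and PLIN4 (up to 2.30 CPM) had counts in all. CIDEA had a log2 fold change of 1.23 on control day 7 against control day 4 (edgeR adjusted p = 0.0637). The libraries of animal C stood apart in red cell markers, which summed to 358 CPM on treated day 7, 4166 CPM on control day 7 and 2383 CPM on control day 4, against at most 4.15 CPM in any other library. Their stromal markers were also high, at 2181, 3305 and 4437 CPM in the same order. In the other libraries these ran from 48.9 to 2273 CPM, so the stromal sums overlapped. The genes called in both arms are therefore also given without the libraries of animal C.

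The first comparison was day 7 against day 4 of the untreated cycle, the days over which the corpus luteum forms and its progesterone rises. DGAT2, PLIN2, MGLL and ABHD5 rose in both arms combined, and LPIN1, DGAT1, PNPLA2, LIPE and PLIN3 did not pass the test. Thus 4 of the 9 genes rose and 0 fell (edgeR quasi-likelihood test with Benjamini-Hochberg adjustment over all genes, adjusted p below 0.05), where 10.6% of all genes tested passed in either direction and 6.27% rose. The median log2 fold change was 0.68 for the 9 genes and -0.05 for all genes tested. Each of the 4 that rose was higher in 6 of 6 cows, as 10.5% of all genes were, and the lowest day 7 library lay above the highest day 4 library, which held for 2.32% of all genes. In bulk samples, fewer cells of a type and less RNA per cell cannot be told apart, so these levels describe the brushing as a whole. Among the marker lists of other cells, 2 of 5 genes of dividing cells and 2 of 7 of T and NK cells were lower on control day 7, 1 of 3 of squamous epithelium was higher, and 0 passed in the other lists, with 0 of 7 for epithelium (median -0.36) and 0 of 6 for macrophages (median 0.28). Their part in the results was not tested.

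**Figure D1:**
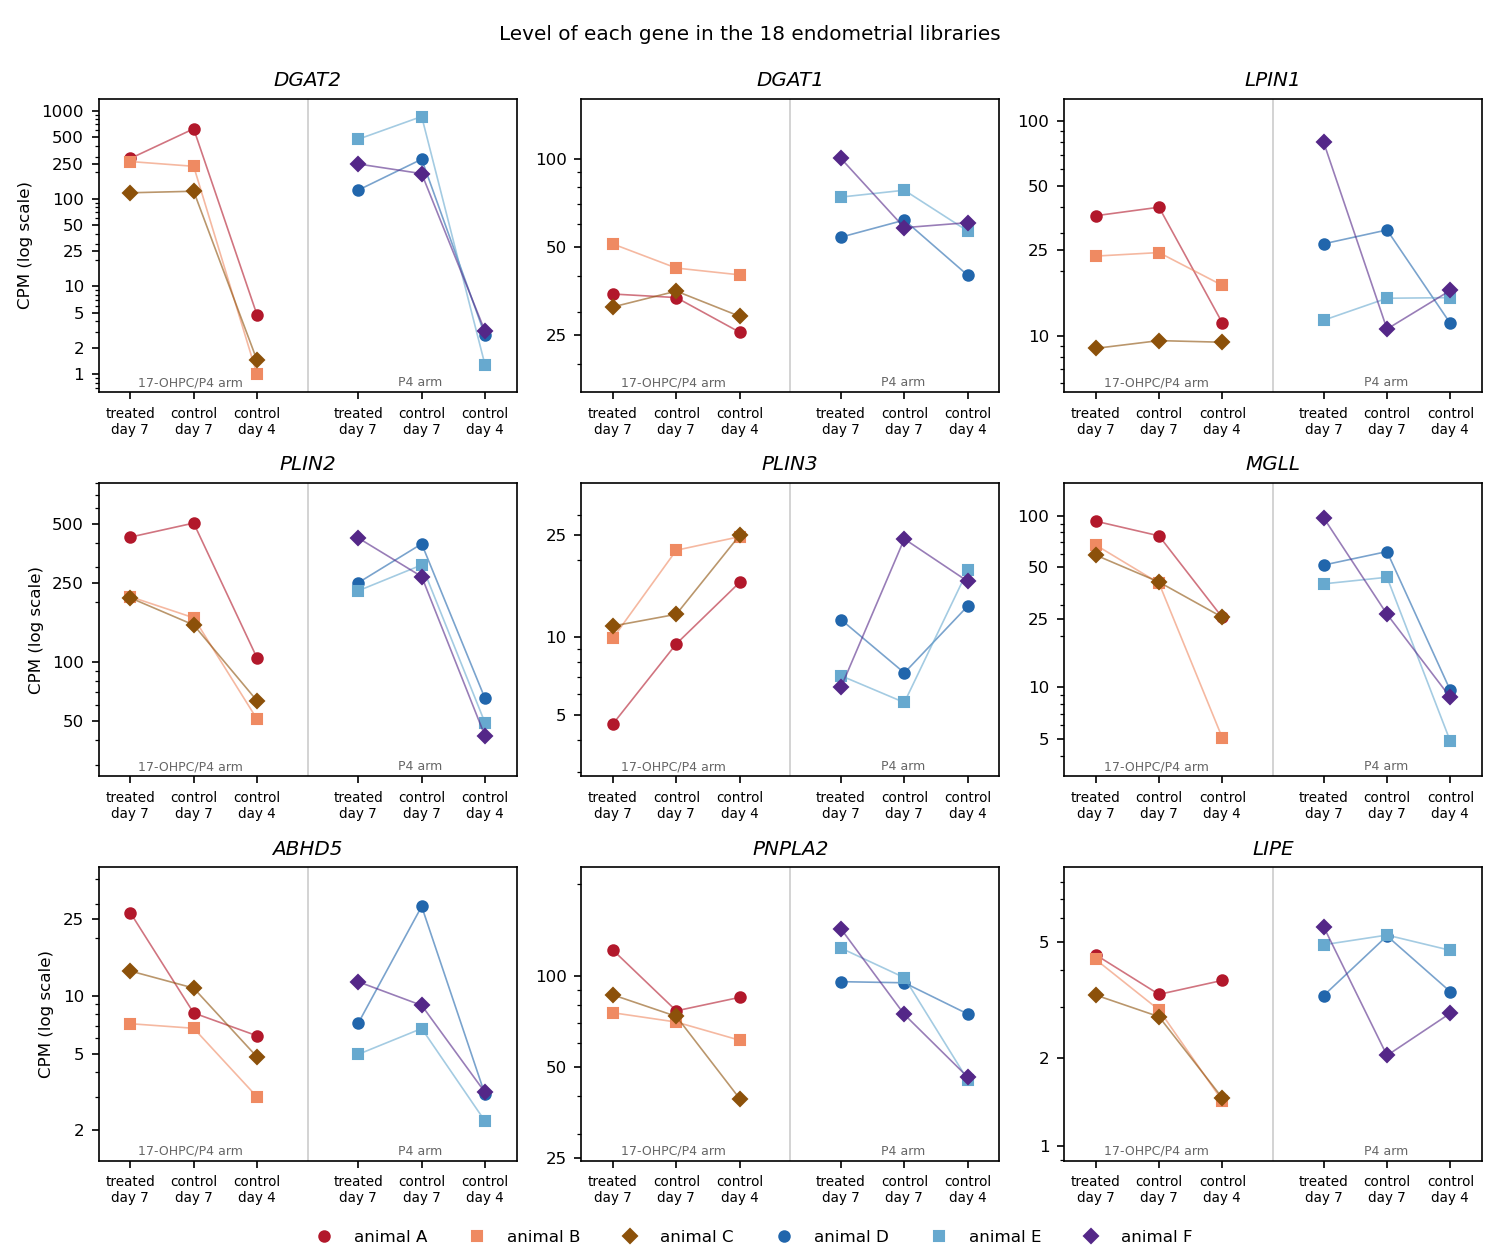
Level of each of the 9 genes (CPM, log axis) in the treated day 7, control day 7 and control day 4 libraries of both arms, with 1 point per library and a line joining the 3 libraries of each cow. DGAT2 lies between 117 and 863 CPM in all day 7 libraries and between 0.996 and 4.73 CPM in all day 4 libraries, while DGAT1 and PNPLA2 keep within a much narrower band.

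Among the synthesis genes, DGAT2 (ENSBTAG00000055742) changed most. Its level on control day 7 was 625, 234 and 121 CPM in animals A, B and C and 281, 863 and 193 CPM in animals D, E and F. On control day 4 the same cows had 4.73, 0.996, 1.44, 2.77, 1.27 and 3.08 CPM, from 32 to 168 counts per library. The day 4 libraries were thus near the low end of detection, though none was at 0, and the 2 days lay far apart in every cow. The log2 fold change was 7.32 ± 0.69 (SE), or 160.0-fold, with a 95% interval of 5.85 to 8.79 and an adjusted p of 8.21e-05. It ranked 7 of the 19638 genes tested both by log2 fold change and by p. Within cows the change ran from 5.97 in animal F to 9.41 in animal E on the log2 scale. Without animal C it was 7.39 (adjusted p = 0.000962).

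The other acyltransferase, DGAT1 (ENSBTAG00000026356), which in most tissues is the more broadly expressed of the pair, did not follow. It had 33.7, 42.4 and 35.4 CPM on control day 7 in animals A, B and C and 61.8, 78.1 and 58.3 CPM in animals D, E and F. On control day 4 it had 25.6, 40.2 and 29.1 CPM in animals A to C and 40.1, 56.7 and 60.6 CPM in animals D to F. The 2 days overlapped, and the log2 fold change was 0.28 ± 0.18 (adjusted p = 0.352), higher in 5 of 6 cows. The interval of that change, -0.11 to 0.67, lies wholly below that of DGAT2.

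LPIN1 (ENSBTAG00000007689) spread widely between cows. On control day 7 it had 39.8, 24.4 and 9.49 CPM in animals A to C and 31.2, 15.0 and 10.8 CPM in animals D to F. On control day 4 it had 11.5, 17.2 and 9.33 CPM in animals A to C and 11.4, 15.1 and 16.3 CPM in animals D to F. Animals A, B and D were higher on day 7, animal F was lower, C and E were nearly level, and the change of 0.68 ± 0.47 (adjusted p = 0.389) did not pass.

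PLIN2 (ENSBTAG00000005718), the coat protein found on droplets of most cell types and stabilized by the lipid it covers, had 503, 167 and 153 CPM on control day 7 in animals A to C and 395, 309 and 269.7 CPM in animals D to F. On control day 4 it had 104, 51.2 and 63.4 CPM in animals A to C and 65.1, 49.0 and 42.0 CPM in animals D to F. Animal A was the highest cow on both days. PLIN2 rose by 2.28 ± 0.33 on the log2 scale (4.84-fold, adjusted p = 0.00176), with the change within cows between 1.28 and 2.68. Without animal C the value was 2.37 (adjusted p = 0.00495).

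PLIN3 (ENSBTAG00000011805), a perilipin that moves between the cytosol and nascent droplets, was the only 1 of the 9 with a negative log2 fold change. It had 9.43, 21.8 and 12.3 CPM on control day 7 in animals A to C and 7.27, 5.58 and 24.1 CPM in animals D to F. On control day 4 it had 16.4, 24.6 and 24.9 CPM in animals A to C and 13.2, 18.2 and 16.5 CPM in animals D to F. It was lower on day 7 in 5 of 6 cows and higher in animal F, and the change of -0.49 ± 0.36 did not pass (adjusted p = 0.418). Without the control day 7 library of animal F it was -0.96 (adjusted p = 0.0384).

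MGLL (ENSBTAG00000018248), which also degrades the endocannabinoid 2-arachidonoylglycerol, had 76.3, 40.5 and 41.1 CPM on control day 7 in animals A to C and 61.8, 43.8 and 26.7 CPM in animals D to F. On control day 4 it had 25.5, 5.07 and 25.6 CPM in animals A to C and 9.60, 4.85 and 8.73 CPM in animals D to F. Animals A and C had a higher day 4 level than the other cows. MGLL rose by 2.00 ± 0.38 on the log2 scale (4.00-fold, adjusted p = 0.00629). The value was 2.22 without animal C (adjusted p = 0.0160), and 1.88 without animal E, where the call was lost (adjusted p = 0.0517).

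ABHD5 (ENSBTAG00000008416) had 8.13, 6.77 and 10.9 CPM on control day 7 in animals A to C and 29.0, 6.75 and 8.90 CPM in animals D to F. On control day 4 it had 6.19, 2.99 and 4.81 CPM in animals A to C and 3.07, 2.24 and 3.15 CPM in animals D to F. The control day 7 library of animal D stood far above the other 5 of that day. ABHD5 rose by 1.64 ± 0.40 on the log2 scale (3.12-fold, adjusted p = 0.0197). Without that library the value was 1.20 (adjusted p = 0.0572). ABHD5 also failed the test without E on control day 4 (1.57, adjusted p = 0.0579), and without all libraries of B (0.0526), C (1.55, adjusted p = 0.0744), D (1.24, adjusted p = 0.109) or E (0.0577). In the same library of animal D the macrophage markers summed to 222 CPM, the neutrophil markers to 141 CPM and the stromal markers to 2273 CPM, against 37.3 to 218 CPM, 16.4 to 65.5 CPM and 48.9 to 3305 CPM in the other control day 7 libraries. Their part in the result was not tested.

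The lipases PNPLA2 and LIPE did not pass. PNPLA2 (ENSBTAG00000005144), the main triglyceride lipase of most tissues, had a lowest, median and highest level of 70.3, 75.5 and 98.5 CPM on control day 7, against 39.3, 53.8 and 84.8 CPM on control day 4. The days overlapped, 5 of 6 cows were higher on day 7, and the log2 fold change was 0.47 ± 0.19 (95% interval 0.05 to 0.88, adjusted p = 0.137). It passed when animal A's library of control day 4 was left out (0.62, adjusted p = 0.0482). LIPE (ENSBTAG00000038321), the hormone-sensitive lipase of adipose tissue, had 2.04, 3.11 and 5.26 CPM on control day 7 and 1.43, 3.11 and 4.67 CPM on control day 4. Its medians were alike on both days, and its log2 fold change was 0.33 ± 0.31 (adjusted p = 0.547), from 46 to 213 counts per library over all 18 libraries.

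**Figure D2:**
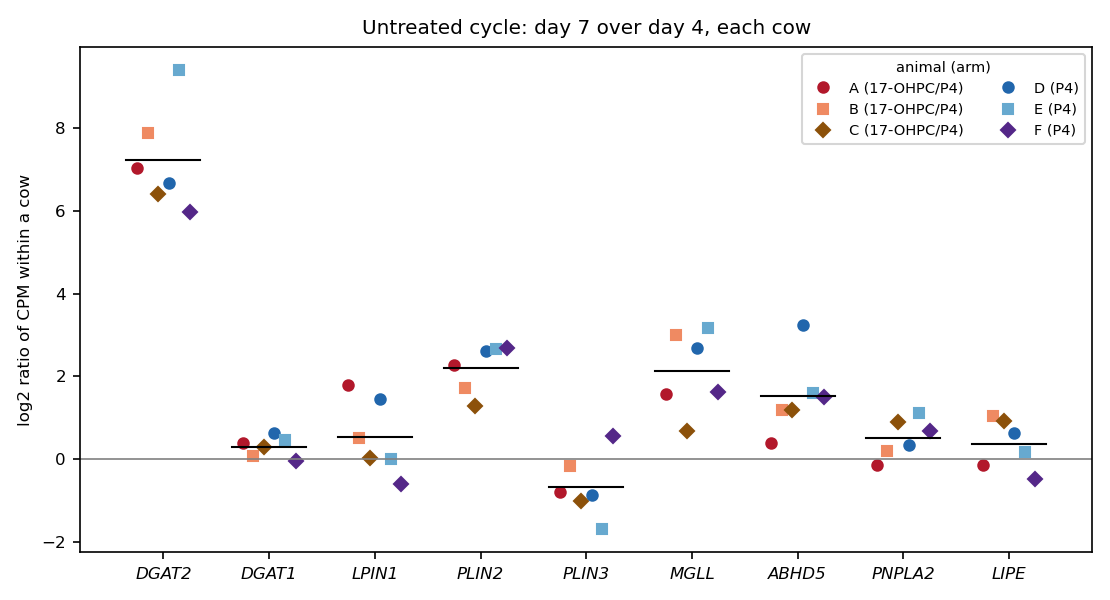
Log2 ratio of the CPM on day 7 to that on day 4 of the untreated cycle, within each of the 6 cows, for the 9 genes. The horizontal bar is the mean of the 6 cows. DGAT2 lies between 5.97 and 9.41 in all cows, PLIN2, MGLL and ABHD5 are above 0 in all 6, and PLIN3 is below 0 in all but animal F.

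The same comparison was made within each arm. The P4 cows had a rise on day 7 in DGAT2 (7.55 ± 0.98, adjusted p = 0.00176), PLIN2 (2.64 ± 0.47, adjusted p = 0.00718), MGLL (2.51 ± 0.55, adjusted p = 0.0163) and ABHD5 (2.40 ± 0.58, adjusted p = 0.0233), so 4 of 9 genes passed where 8.65% of all genes did. Among markers of other cells there, 3 of 7 of T and NK cells and 1 of 5 of dividing cells were lower and 1 of 3 of squamous epithelium was higher, and their part was not tested. In the 17-OHPC/P4 arm DGAT2 alone rose (7.09 ± 0.97, adjusted p = 0.0112), 1 of 9 genes where 0.0407% of all genes passed. PLIN2 had 1.91 ± 0.46 in that arm (adjusted p = 0.158), and with the cow as a block it passed (adjusted p = 0.0281), so that 2 of 9 genes then passed where 0.550% of all genes did. MGLL had 1.49 ± 0.53 (adjusted p = 0.344) and ABHD5 0.88 ± 0.56 (adjusted p = 0.687). The day 7 and day 4 libraries of these 4 genes did not overlap in either arm, which held for 7.10% of all genes among the 17-OHPC/P4 cows and 16.1% among the P4 cows. The difference between the arms in this change passed for 0 of the 9 genes (0.00% of all genes by edgeR, and 0 of the 9 by DESeq2 or limma voom). At an unadjusted p under 0.05 there were 0 of the 9, against 1514 of the 19638 genes tested. The widest gaps between the arms in this change were -1.51 ± 0.79 for ABHD5 and -1.02 ± 0.74 for MGLL, 17-OHPC/P4 arm minus P4 arm.

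The calls within an arm, with 3 cows, leaned on single libraries. For DGAT2 among the 17-OHPC/P4 cows, leaving out the control day 4 brushing of B or C gave an adjusted p of 0.167 or 0.164, and leaving out all brushings of B or C gave 0.508 or 0.0851 (7.22 without C). Among the P4 cows, MGLL failed the test without D on control day 7 (adjusted p = 0.0731), E on control day 4 (0.0831) or F on control day 4 (0.0622). ABHD5 failed it without D on control day 7 (1.48, adjusted p = 0.144), or without D (0.0623), E (0.104) or F (0.0803) on control day 4. With all brushings of a cow left out, PLIN2 failed without D (0.0925) or E (0.0964), MGLL without D (0.150) or E (0.142), and ABHD5 without D (1.55, adjusted p = 0.244), E (0.110) or F (0.0594). DGAT2 passed among the P4 cows with any 1 library or any 1 cow left out.

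The second comparison was day 7 of the treated cycle against day 7 of the control cycle. It bears on the treatment but cannot tell it from the order of the cycles. None of the 9 genes passed in both arms combined or in either arm (0.00% of all genes passed in each of the 3 comparisons by edgeR). At an unadjusted p under 0.05 the count was 0 of 9 in each. Over all genes tested it was 850 of 19638 in both arms, 371 among the 17-OHPC/P4 cows and 596 among the P4 cows. With shares this low, a count of 0 of 9 says little about these genes. DESeq2 and limma voom called 0 of the 9. Log2 fold changes in both arms combined ran from -0.66 for PLIN3 to 0.49 for MGLL, with a median of 0.14 for the 9 genes and -0.01 for all genes. The 6 macrophage markers were all negative in the same comparison, with a median of -1.22, and the 6 stromal markers likewise with a median of -0.56, and 0 of either list passed; their part was not tested. For the 9 genes the 95% intervals reached 0.39 to 1.11 on the log2 scale to each side of the value, so changes of about that size lie within the error.

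DGAT2 on treated day 7 had 287, 265 and 117 CPM in animals A to C and 125, 476 and 248 CPM in animals D to F, against the 121 to 863 CPM of control day 7. The levels overlapped, and 4 of 6 cows were lower in the treated cycle. Its log2 fold change was -0.60 ± 0.52 (95% interval -1.72 to 0.51, adjusted p = 0.897). Over the 6 groups its mean level was 223 ± 92.6 CPM on treated day 7, 327 ± 264 CPM on control day 7 and 2.39 ± 2.04 CPM on control day 4 in the 17-OHPC/P4 arm (SD, n = 3 each). For the P4 cows it was 283 ± 178, 446 ± 364 and 2.38 ± 0.969 CPM in the same order. The 4 day 7 groups overlapped one another and could not be put in order beyond their spread.

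PLIN2 had 427, 213 and 210.4 CPM on treated day 7 in animals A to C and 251, 229 and 423 CPM in animals D to F. The levels overlapped those of control day 7, 3 of 6 cows were higher, and the log2 fold change was -0.03 ± 0.32 (interval -0.71 to 0.64). MGLL had 92.9, 67.5 and 59.0 CPM on treated day 7 in animals A to C and 51.6, 40.1 and 97.2 CPM in animals D to F. It was higher than on control day 7 in animals A, B, C and F and slightly lower in D and E, with a log2 fold change of 0.49 ± 0.37 (interval -0.29 to 1.28, adjusted p = 0.896).

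PNPLA2 was higher in the treated cycle in 6 of 6 cows, which held for 2.35% of all genes. It had 121, 75.5 and 86.4 CPM on treated day 7, against 76.6, 70.3 and 73.4 CPM on control day 7, in animals A to C. In animals D to F it had 95.6, 123 and 143 CPM on treated day 7, against 94.8, 98.5 and 74.5 CPM on control day 7. In animal D the levels were nearly equal, and the 2 sets of 6 libraries overlapped. The log2 fold change was 0.40 ± 0.19 (interval -0.02 to 0.81), with an unadjusted p of 0.0592 and an adjusted p of 0.896.

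ABHD5 ran in opposite directions in single cows. It had 26.9, 7.15 and 13.4 CPM on treated day 7 in animals A to C and 7.21, 4.97 and 11.8 CPM in animals D to F. Within cows the log2 ratio to control day 7 was 1.73 in animal A and -2.01 in animal D, and between -0.44 and 0.41 in the other 4. The log2 fold change was 0.88 ± 0.56 for the 17-OHPC/P4 cows and -0.90 ± 0.56 for the P4 cows, and neither passed. Without the control day 7 library of animal D the P4 value was 0.06.

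LPIN1 on treated day 7 had 36.3, 23.5 and 8.74 CPM in animals A to C and 26.8, 11.8 and 79.8 CPM in animals D to F. The library of animal F held by far the highest of the 18 levels, and the other 5 cows were each slightly lower than on control day 7. The log2 fold change of 1.06 ± 0.67 in the P4 arm became 0.03 without that library, and that of both arms, 0.48 ± 0.47, became -0.04. DGAT1 had a lowest, median and highest level of 31.3, 52.7 and 100.2 CPM on treated day 7, against 33.7, 50.3 and 78.1 CPM on control day 7 (log2 fold change 0.14 ± 0.18). LIPE had 3.27, 4.43 and 5.62 CPM on treated day 7, against 2.04, 3.11 and 5.26 CPM (0.28 ± 0.31).

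PLIN3 had 4.61, 9.93 and 11.1 CPM on treated day 7 in animals A to C and 11.7, 7.09 and 6.39 CPM in animals D to F. It was lower than on control day 7 in animals A, B, C and F and higher in D and E, with a log2 fold change of -0.66 ± 0.36 (interval -1.42 to 0.10, unadjusted p = 0.0845, adjusted p = 0.896).

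Cows of the P4 arm stood at both ends of the treatment response. Of the 9 genes, animal F had the highest within-cow ratio of treated to control day 7 for 7, and animal D the lowest for 7. The same counts were not made over all genes, so whether these extremes are particular to the 9 genes is not known. Between these libraries the markers of other cells also differed. The stromal markers of animal F summed to 175 CPM on treated day 7, against 48.9 CPM on control day 7, and those of animal D to 1210 CPM, against 2273 CPM. The macrophage markers of animal F summed to 31.4 CPM on treated day 7, against 37.3 CPM on control day 7, and those of animal D to 64.4 CPM, against 222 CPM. Markers of ciliated cells summed to 39.5 CPM on treated day 7 in animal F, against 217 CPM on control day 7, and to 177 CPM in animal D, against 29.2 CPM. The epithelial markers of animal F summed to 2862 CPM on treated day 7, against 4486 CPM on control day 7. Its adipocyte markers summed to 14.5 CPM, against 7.89 CPM. CIDEA alone made up 9.39 CPM of the 14.5 CPM, so that sum turned mostly on 1 gene. LEP had no count, and CIDEC and PLIN1 reached at most 0.253 and 4.29 CPM in any library. The part of these markers in the ratios was not tested.

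**Figure D3:**
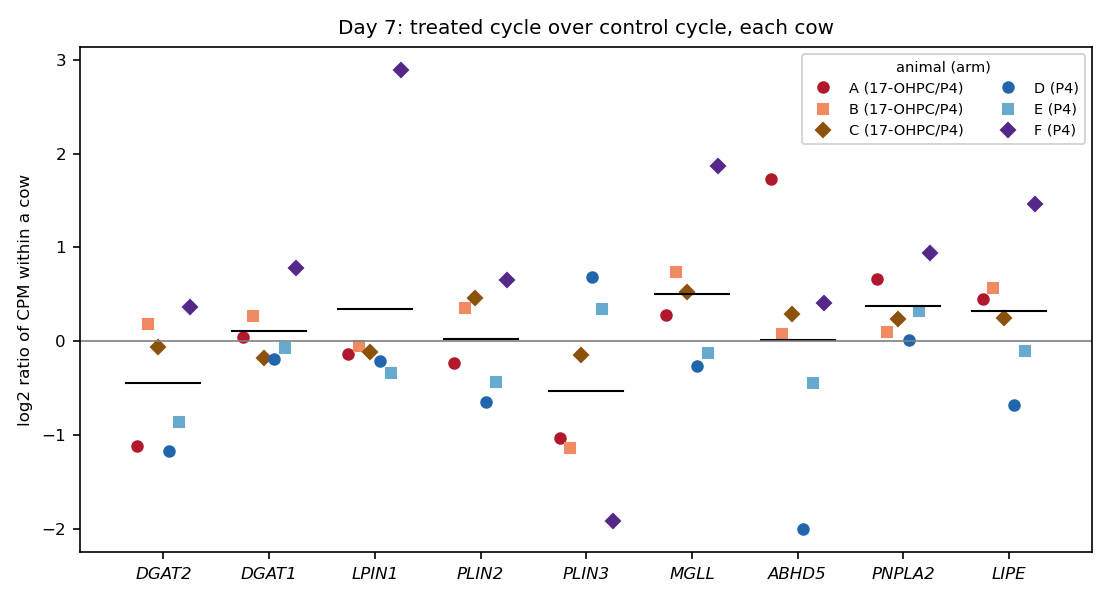
Log2 ratio of the CPM on day 7 of the treated cycle to that on day 7 of the control cycle, within each of the 6 cows, for the 9 genes. The horizontal bar is the mean of the 6 cows. Only PNPLA2 is above 0 in all 6, LPIN1 is at 2.89 in animal F and below 0 in the other 5, and ABHD5 runs from -2.01 in animal D to 1.73 in animal A.

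Treated day 7 was also set against control day 4 within each arm, which combines the passage from day 4 to day 7 with the treatment and shares its day 4 libraries with the first comparison. In the P4 arm DGAT2 (6.90 ± 0.96, adjusted p = 0.00360), MGLL (3.03 ± 0.56, adjusted p = 0.0122), PLIN2 (2.53 ± 0.47, adjusted p = 0.0122) and PNPLA2 (1.12 ± 0.28, adjusted p = 0.0296) rose, 4 of 9 genes where 7.48% of all genes passed. PNPLA2 had 95.6, 123 and 143 CPM on treated day 7 there, against 74.8, 45.4 and 46.3 CPM on control day 4, with no overlap, as for 16.5% of all genes. ABHD5 had 1.50 ± 0.57 and did not pass (adjusted p = 0.118; 0.0457 by DESeq2). In the same comparison 4 of 5 markers of dividing cells were lower (list median -3.75) and 1 of 3 of squamous epithelium was higher. Their part in the results was not tested.

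In the 17-OHPC/P4 arm DGAT2 rose (6.54 ± 0.94, adjusted p = 0.0154), 1 of 9 genes where 0.682% of all genes passed. With the cow as a block 3 of the 9 passed, where 5.24% of all genes did. The further 2 were PLIN2 (1.96 ± 0.46, adjusted p = 0.0599 without the block and 0.00681 with it) and MGLL (1.96 ± 0.54, adjusted p = 0.0943 without and 0.0355 with it). ABHD5 had 1.76 ± 0.57 in this arm and did not pass (adjusted p = 0.129; 0.0251 by DESeq2).

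PLIN3 was lower on treated day 7 than on control day 4 in 6 of 6 cows, which held for 13.0% of all genes. In the 17-OHPC/P4 arm its 4.61, 9.93 and 11.1 CPM on treated day 7 lay below the 16.4, 24.6 and 24.9 CPM of control day 4, and in the P4 arm its 11.7, 7.09 and 6.39 CPM lay below the 13.2, 18.2 and 16.5 CPM of control day 4. Such a gap with no overlap was found for 12.9% and 18.2% of all genes. The log2 fold change was -1.36 ± 0.51 for the 17-OHPC/P4 cows (adjusted p = 0.173) and -0.93 ± 0.51 for the P4 cows (adjusted p = 0.280).

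Single libraries again decided calls in these comparisons. Among the P4 cows, PLIN2, MGLL and PNPLA2 each failed the test without E on control day 4 (adjusted p = 0.0733, 0.0739 and 0.132), F on control day 4 (0.0625, 0.0582 and 0.122) or F on treated day 7 (0.0573, 0.0571 and 0.130). With all brushings of a cow left out, DGAT2 failed there without E (5.99, adjusted p = 0.0641) or F (7.22, adjusted p = 0.0660), PLIN2 and MGLL without D, E or F (0.0564, 0.0870 and 0.171 for PLIN2, and 0.0573, 0.0854 and 0.138 for MGLL), and PNPLA2 without B, E or F (0.0562, 0.191 and 0.297). Among the 17-OHPC/P4 cows, DGAT2 failed without A on treated day 7 (0.0510), B (0.0928) or C (0.105) on control day 4, or all brushings of B (0.260) or C (6.58, adjusted p = 0.0567).

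The arms were compared directly on each day. Both received 100 mg of their main progestin, but the 17-OHPC/P4 depot held a further 10 mg of P4, so the doses are not fully matched. On treated day 7, 0 of the 9 genes passed by edgeR, DESeq2 or limma voom, where 0.0102% of all genes passed by edgeR. At an unadjusted p under 0.05 there was 1 of the 9, against 1792 of the 19638 genes tested, which is near the same share. That gene was DGAT1. It had 34.6, 51.2 and 31.3 CPM in animals A to C and 54.1, 74.1 and 100.2 CPM in animals D to F, with no overlap, which held for 7.08% of all genes. The log2 fold change, 17-OHPC/P4 arm over P4 arm, was -0.96 ± 0.26 (adjusted p = 0.292).

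DGAT1 showed the same gap before any treatment. On control day 7 it had 33.7, 42.4 and 35.4 CPM in animals A to C, all below the 61.8, 78.1 and 58.3 CPM of animals D to F, a gap found for 6.80% of all genes (-0.83 ± 0.26, adjusted p = 0.269, 0.00509% of all genes called). On control day 4 the arms overlapped by a narrow margin, with 40.2 CPM in animal B and 40.1 CPM in animal D (-0.73 ± 0.26, adjusted p = 0.122, 2.76% of all genes called). On control day 7 and on control day 4, 0 of the 9 genes passed by edgeR, DESeq2 or limma voom, with 1 and 2 at an unadjusted p under 0.05. Over all genes, 2088 and 4368 of the 19638 tested were under that threshold, so both counts are near the share of all genes. The second of the 9 on control day 4, besides DGAT1, was MGLL, with 25.5, 5.07 and 25.6 CPM in animals A to C and 9.60, 4.85 and 8.73 CPM in animals D to F (1.28 ± 0.53, adjusted p = 0.178), the largest gap of the 9 genes on that day. Without animal C the DGAT1 gaps were -0.83 on treated day 7, -0.80 on control day 7 and -0.67 on control day 4. All of these share the same cows.

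The arms were also compared in the treatment response, where such standing differences between cows largely cancel in the value. They stay in its SE, interval and p-value, as the fit does not use the pairing by cow. The difference between the arms in this response passed for 0 of the 9 genes (0.00% of all genes by edgeR, 0 of the 9 by DESeq2 and limma voom). At an unadjusted p under 0.05 there was 1, ABHD5, with 1.77 ± 0.79 (unadjusted p = 0.0403, adjusted p = 0.999978), and 0.86 without the control day 7 library of animal D. Over all genes, 247 of the 19638 tested were under that threshold. For DGAT2 the difference was 0.10 ± 1.04 with an interval of -2.12 to 2.32, for PLIN2 0.16 ± 0.63 (-1.19 to 1.51), for MGLL -0.04 ± 0.73 (-1.61 to 1.53) and for PNPLA2 -0.07 ± 0.39 (-0.90 to 0.76). The intervals are wide, so these values do not show that both formulations act alike on the genes.

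Of 48 further genes in 3 lists, 44 had a row, and 40 rows were tested, CES1 having 2. On control day 7 against control day 4, 2 of the 40 rose and 0 fell, where 6.27% of all genes rose, and the median log2 fold change was 0.22. That share is no higher than that of all genes. The 2 were DDHD2, a lipase that in mouse brain hydrolyses triglyceride, with 191 ± 64.6 CPM on control day 7 against 82.3 ± 28.3 CPM on control day 4 (SD, n = 6 each), a log2 fold change of 1.22 ± 0.30 (edgeR adjusted p = 0.0189); and ABHD6, a monoacylglycerol lipase, with 28.5 ± 10.4 against 14.1 ± 3.65 CPM (edgeR adjusted p = 0.0219). With the cow as a block 2 more passed, where 16.7% of all genes did. LPL, the lipase that frees fatty acids from lipoproteins in capillaries, had 47.9 ± 23.8 CPM on control day 7 and 7.49 ± 11.7 CPM on control day 4 (2.93 ± 1.05, adjusted p = 0.0869 without the block and 0.0387 with it). LDAF1, a partner of seipin where droplets form, had 20.0 ± 10.2 and 9.31 ± 2.14 CPM (1.10 ± 0.35, adjusted p = 0.0586 without and 0.0483 with it).

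By role, 0 of 12 other genes of glycerolipid synthesis passed on control day 7 against control day 4 (median -0.16, 5 positive and 7 negative), where 10.6% of all genes passed in either direction; on so short a list a count of 0 is near that share. Of the 14 other genes of droplet assembly and coat 0 passed (median 0.28, 13 positive and 1 negative), and of the 14 other rows of neutral lipid breakdown 2 rose (median 0.25, 11 positive and 3 negative). Over all genes tested, 9057 were positive and 10581 negative, and 6.27% rose. The signs in these short lists were not tested. G0S2, the inhibitor of PNPLA2, named here after its values were seen, had 11.8 ± 4.09 CPM on control day 7 and 12.0 ± 4.14 CPM on control day 4 (-0.01 ± 0.29). On treated day 7 against control day 7, 0 of the 40 passed by edgeR, with a median of -0.01. At an unadjusted p under 0.05 there was 1 of the 40, against 850 of the 19638 genes tested.

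DDHD2 and ABHD6 also rose on treated day 7 against control day 4 in the P4 arm. DDHD2 had 239 ± 76.9 CPM on treated day 7 and 74.1 ± 18.1 CPM on control day 4 there (SD, n = 3 each; 1.69 ± 0.42, edgeR adjusted p = 0.0304), and ABHD6 had 39.1 ± 9.91 and 14.8 ± 1.76 CPM (1.40 ± 0.36, edgeR adjusted p = 0.0330). Further calls were made with the cow as a block, where 15.1% of all genes passed between the control days and 13.8% on treated day 7 against control day 4 in the P4 arm. They were DDHD2 and ABHD6 on control day 7 against control day 4 in the P4 arm (adjusted p = 0.0545 and 0.0549 without the block, 0.00765 and 0.0247 with it), DDHD2 on treated day 7 against control day 4 in the 17-OHPC/P4 arm (0.0864 without and 0.0118 with it), and the acyltransferase AGPAT5, with 26.7 CPM on treated day 7 and 39.2 CPM on control day 4 in the P4 arm (-0.56 ± 0.17, 0.0586 without and 0.0480 with it).

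**Figure D4:**
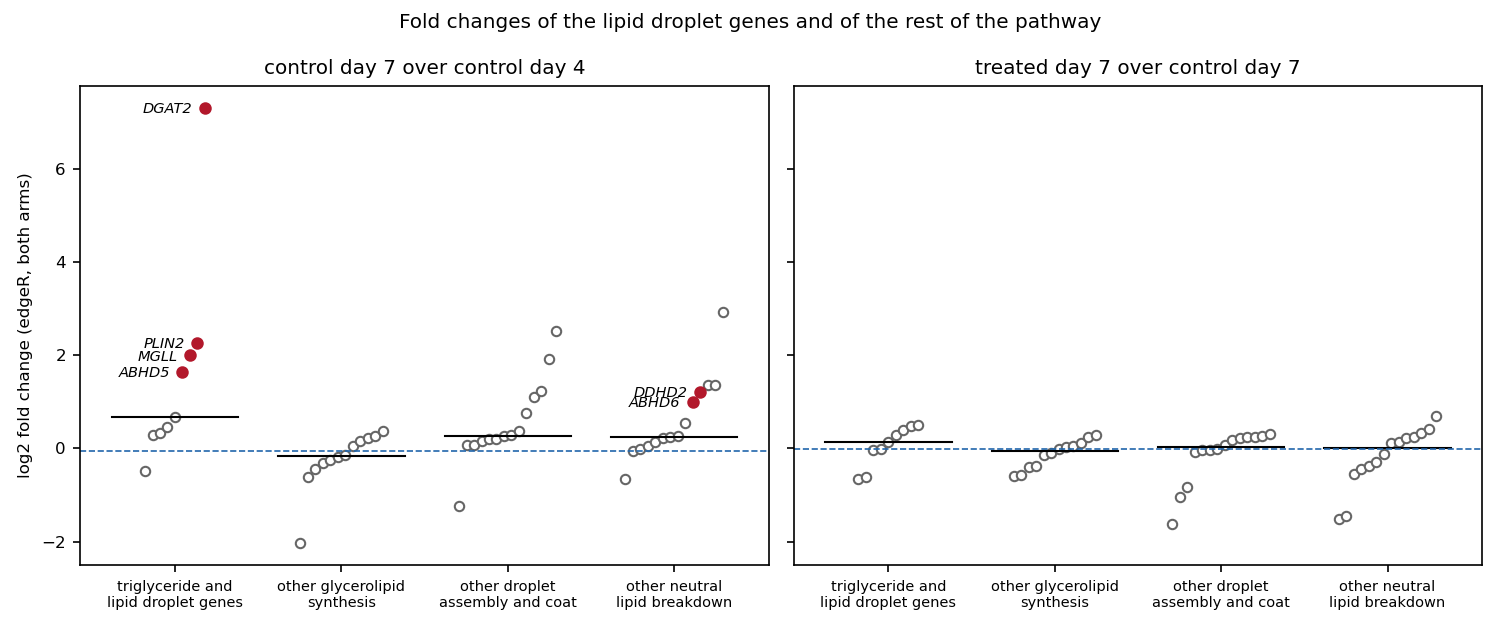
Log2 fold changes (edgeR, both arms) of the 9 genes and of the other pathway genes, by role, for control day 7 over control day 4 and for treated day 7 over control day 7. Each point is a gene, filled and named where the adjusted p was under 0.05; black bars are medians of a group and the dashed line is the median of all genes tested (-0.05 and -0.01). DGAT2 at 7.32 lies far above every other gene drawn, and no point is filled in the comparison of treatment.

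Genes were ranked by their likeness to DGAT2 over the 18 libraries. The measure was the root mean square difference of log2(CPM + 1) after centring each gene on its mean. Genes were not scaled, so it weighs the size of the changes as well as their shape. Among the nearest were MYH7B, a myosin heavy chain (0.844 on the log2 scale), SSLP1 (1.02) and FXYD4, a regulator of the sodium pump (1.12). MYH7B averaged 734 CPM on treated day 7, 523 CPM on control day 7 and 9.96 CPM on control day 4. SSLP1 averaged 163, 139 and 3.94 CPM in the same order, and FXYD4 146, 128 and 4.53 CPM. Of the other lipid droplet genes PLIN2 ranked 173 (2.09) and MGLL 197 (2.15) among all genes tested, while PLIN3 ranked 18420. The libraries share cows, and the likeness is a description of these 18 samples.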

How the data were processed

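Poly(A) RNA from 18 endometrial cytobrush samples of 6 cows, 3 per group, was converted to random-primed cDNA and sequenced as 2 x 150 bp pairs on a DNBSEQ instrument, per the labels' protocols. The authors deposited 1 table of raw read counts per gene, without normalization. Trimming and quality tools (cutadapt, FastQC), the aligner STAR, the counter featureCounts and also DESeq2 appear in the submitters' processing notes, with no version. Build, annotation and strand setting: not given in the sources used here. Of the deposited counts from 1 to 10, 80.6% were even, against 50.8% above 1000, a pattern that arises when each read of a pair is counted. The pair setting is not known; if reads were counted singly, counts would overstate the number of fragments. Identifiers matched 0 entries of the reference table, so no coordinates are given.

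Every column belonged to a labelled sample. Of 38001 rows, 17715 had no symbol. After edgeR's expression filter, 19638 genes were tested with edgeR 4.0.16 in R 4.3.3 (TMM scaling, factors 0.881 to 1.16, robust quasi-likelihood F test) on 6 group means fitted over all 18 libraries, with Benjamini-Hochberg adjustment over all genes and a threshold of 0.05. A change in both arms is the mean of the changes of the arms. SEs are the log2 fold change divided by the root of F, and CPM are on TMM-scaled library sizes. P-values of this fit measure the spread of libraries within groups, pooled over the 6 groups, with 3 cows in an arm. The pairing of libraries by cow is not used in it, so they do not measure the spread of changes within cows. Among 153 pairs of libraries 0 were identical, and counts within groups differed far beyond sampling noise (chi-square per gene of 47.5 or more). The code was also run on simulated counts drawn without any effect of the cow, which cannot show how the tests behave on paired libraries.

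Same-lettered samples are the same cow, per the labels, so the letter pairs them. Deviations from group means correlated at -0.07 to 0.72 in the 18 within-cow pairs, over 0.1 in 12. The fit with the cow as a block is an alternative; its biological coefficient of variation was 39.4%, against 51.4% without it. Other alternatives were DESeq2 1.42.0, limma voom (limma 3.58.1), voom with the cow as a random effect, RLE and upper quartile scaling, no filter, a filter of 1 CPM in 3 libraries, a fit of only the groups compared, and leaving out each library. Leaving out all libraries of a cow was chosen after seeing the data.

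The genes and lists were chosen with earlier results of these data known. All listed genes are named, with other pathway genes that were called (at most 6 per comparison) and, of the 5 symbols most like DGAT2, 3; the others are not reported here.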

Additional observations from a re-analysis of the deposited data

Results flagged for a closer look

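Over the 6 untreated libraries of each day, the highest and lowest level of each of the 9 genes was set against the nearest other level, which gave 18 groups to examine; groups of 3 were not tested. In 2 of them a library stood apart by more than Dixon's critical value allows, where chance flags about 1 in 20 groups of normally distributed values. For ABHD5 it was animal D on control day 7, with 29.0 CPM against 10.9 CPM in the next highest library, a gap of 0.812 of the range. For PLIN2 it was animal A on control day 4, with 104 CPM against 65.1 CPM in the next highest library, a gap of 0.630 of the range.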

How the results depend on the processing

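Of 117 values of the 9 genes, 14 were called, and 0 of these changed sign under any of 33 settings; 45 of the 103 uncalled values did under at least 1. For day 7 against day 4 of the control cycle in the 17-OHPC/P4 arm, 1 gene was called, against 2 by DESeq2, 0 by limma voom, 2 with the replicate block in edgeR or voom, and 0 with only the groups compared in the fit (DGAT2 then had adjusted p = 0.0594 and 0.688). For treated day 7 against control day 4 in that arm, 1 was called, against 4 by DESeq2, 2 by limma voom, 3 with the block in edgeR, 4 with it in voom, and 0 with only the groups compared (DGAT2 0.247). In the P4 arm on control days, ABHD5 was lost with limma voom (adjusted p = 0.0560) and with only the groups compared (0.0544). The edgeR block changed no other call of the 9 genes than those given for the 17-OHPC/P4 arm; voom with the block also called PNPLA2 in both arms (0.0469) and PLIN3 in the treated 17-OHPC/P4 arm (0.0497).

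With a library or cow left out, for the control days the counts called were 2 to 5 in both arms, 0 to 1 among the 17-OHPC/P4 cows and 1 to 4 among the P4 cows, and 0 to 2 and 0 to 4 for treated day 7 against control day 4. Left with 2 libraries, a group is assumed to vary like the others. Scaling and filter choices changed no count, and 0 of the 9 genes were called for the treatment, or between arms, under any setting.

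Of the uncalled values printed here, those that changed sign were, for treated against control day 7 in both arms, PLIN2 (-0.03; 0.0228 by voom, 0.0335 with the edgeR block, 0.0214 with the voom block, -0.25 to 0.36 with libraries left out), ABHD5 (-0.34 to 0.53), LPIN1 (-0.18 to 0.89) and DGAT1 (-0.0275 to 0.25). For the P4 cows alone they were ABHD5 (-1.55 to 0.14) and LPIN1 (-0.25 to 1.86). For the difference between arms in the treatment response they were LPIN1 (-1.93 to 0.15), DGAT2 (-0.81 to 0.98), PLIN2 (-0.26 to 0.93), PNPLA2 (-0.29 to 0.18) and MGLL (-0.04; 0.00877 by voom, 0.0831 with the edgeR block, 0.00806 with the voom block, 0.0113 with no filter, 0.0263 with the filter of 1 CPM, -0.47 to 0.68 with libraries left out), and in the day change LPIN1 (-0.0533 to 1.24). The cause was not tested.

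Over all genes, edgeR, DESeq2 and the edgeR block called 2073, 3525 and 3272 for the control days in both arms, 8, 409 and 108 among the 17-OHPC/P4 cows, 1698, 3401 and 2975 among the P4 cows, and for treated day 7 against control day 4 134, 1533 and 1029, and 1468, 2984 and 2702. For the treatment DESeq2 called 2, 1 and 2 genes, against 0 by edgeR, and between arms 215, 365 and 2307, against 2, 1 and 542, and 88, against 0, for the difference in the day change. Depth limits LIPE, with 46 counts in its lowest library, and DGAT2 on day 4, with 32.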
